A study of Mus musculus with 7 samples.

Results

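The genes described here are 10 members of the colony-stimulating factor and Flt3/Kit axis: the ligands Csf1, Il34, Csf2 and Flt3l and the receptors Csf1r, Csf3r, Csf2ra, Csf2rb, Flt3 and Kit. They were taken by name, and all 10 were found among the 55491 gene rows of the matrix. Each was followed as UMIs (unique molecular identifiers, each standing for 1 captured transcript) per 1e6 UMIs of a cell type, written CPM, in each cell type name the authors gave and in each genotype. The material was 28644 live cells positive for CD45, CD11b or both, sorted from the tumour-bearing hemispheres of 7 mice and profiled from the 5′ end of transcripts, with 1 droplet library per mouse. Every mouse was engrafted intracranially at 8 to 12 weeks with 50000 cells of CT-2A, a mouse glioma line, and all received tamoxifen at 2.5 mg per injection, daily from day 7 to day 21 and every other day after that. The 4 mice of the KO group were Sall1CreERT2 x Siglecefl/fl, in which a tamoxifen-dependent Cre is driven from Sall1, a transcription factor gene that marks microglia within the brain's myeloid cells. The 3 mice of the WT group carried the floxed Siglece alleles without the driver, so that WT here means floxed, Cre-negative and tamoxifen-treated.

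Macrophage, granulocyte and dendritic cell numbers are set by a small group of cytokines. CSF1 and IL-34 both bind the receptor kinase CSF1R, on which microglia and most tissue macrophages depend for survival. GM-CSF, the product of Csf2, is made mainly by activated T cells and binds a receptor of the α chain encoded by Csf2ra and the common β chain encoded by Csf2rb, while G-CSF binds CSF3R. FLT3 and its ligand drive dendritic cell development, and KIT, the receptor for stem cell factor, is known from progenitors, mast cells and some dendritic cell subsets.

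The libraries held 1410 to 5856 cells and 16037214 to 38966377 UMIs, with a median of 4479 to 9554 UMIs per cell. A barcode shared by more than 1 library occurred in 926 cells (460 barcodes). The authors' 23 cell type names were checked against marker lists: 7 of 8 microglia, 6 of 6 plasmacytoid dendritic cell (pDC), 5 of 5 NK cell, 5 of 5 B cell, 5 of 8 T cell and 4 of 9 monocyte and macrophage markers were highest in the class of that name. Of the 8 conventional dendritic cell markers, 6 were highest in the conventional dendritic cells, but the cells named cDC2 had Ccr7 at 3771 CPM and Fscn1 at 5286 CPM, genes of migratory mature dendritic cells, with the cDC2 markers Cd209a at 0.138 CPM and Clec10a at 3.30 CPM. Cd209a and Clec10a stood at 49.2 and 116 CPM in the cells named mo-DCs, so both names are used below only as the authors' names. Siglece, the targeted gene, had 2, 1, 0 and 0 UMIs in the microglia of KO replicates 1 to 4 and 20, 19 and 7 in those of WT replicates 1 to 3. Per 1e6 UMIs these were 10.7, 19.6, 0 and 0 CPM in KO and 36.1, 45.9 and 18.6 CPM in WT mice, so the groups overlapped, KO replicate 2 resting on 1 UMI of 51086. Where on the transcript these UMIs lie was not examined. KO mice had 113 microglia in all and WT mice 301. T cells were 43.5%, 50.2%, 79.9% and 60.6% of the cells of KO replicates 1 to 4, against 10.6%, 33.8% and 31.9% in WT replicates 1 to 3. Monocytes and macrophages were 9.25% to 23.5% of KO cells and 32.3% to 53.1% of WT cells.

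**Figure D1:**
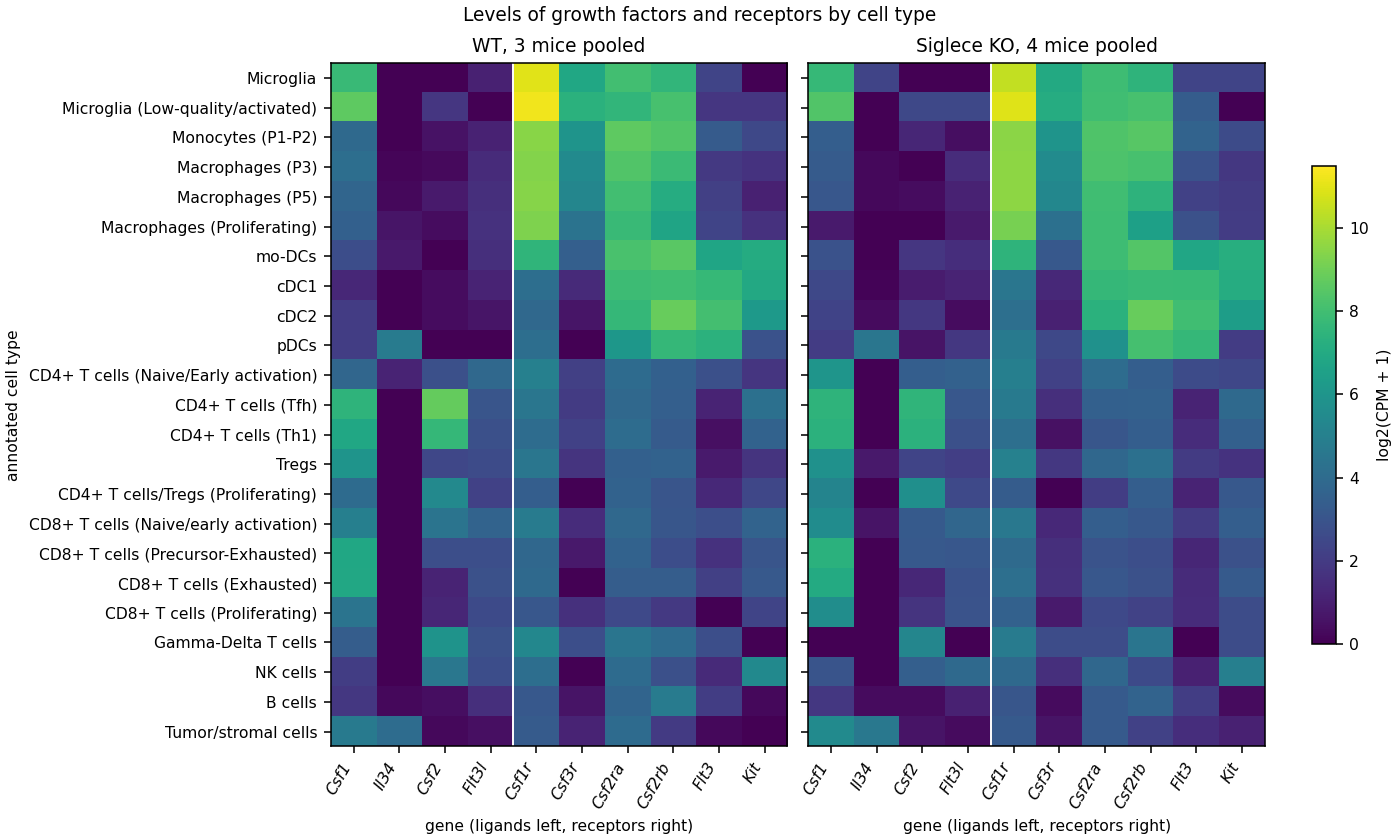
Colour gives the level of each of the 10 genes (columns, ligands left of the white line and receptors right of it) in each of the 23 annotated cell types (rows) as log2(CPM + 1), pooled over the 3 WT mice (left panel) and the 4 KO mice (right panel). Csf1r is brightest in both microglia rows, Csf2 in Tfh and Th1 cells, and Flt3 and Kit in dendritic cells, in both panels.

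Csf1, which encodes the main CSF1R ligand, was highest in microglia and then in activated T cells. The cells named low-quality or activated microglia held 405 ± 92.0 CPM (mean ± SD over mice, n = 5 mice with at least 20 such cells, 2 KO and 3 WT). The other microglia were at 211 ± 113 CPM (n = 3, all WT), lower by more than the larger of both SDs. These means thus cover unlike sets of mice, here and for the receptors below. Next came Tfh cells at 174 ± 89.8 (n = 6), Th1 cells at 149 ± 84.8 (n = 6), exhausted CD8+ T cells at 126 ± 29.4 (n = 6) and precursor-exhausted CD8+ T cells at 117 ± 60.5 CPM (n = 7), an order in which no neighbours differed beyond their spread. A step beyond the spread followed, to 56.0 ± 24.4 CPM in Tregs. Monocytes and macrophages, which carry the receptor, held between 4.73 ± 5.21 (proliferating) and 13.6 ± 7.10 CPM (P3), and B cells 5.95 ± 3.33. After each cell was thinned to 1500 UMIs, a Csf1 UMI was found in 25.9% of low-quality microglia, 19.4% of precursor-exhausted CD8+ cells, 16.6% of Tfh cells and 0.791% of B cells, a type taken here as the level that free RNA gives. Without thinning these shares were 31.9%, 44.5%, 30.4% and 2.74%, at median depths of 2222, 5569, 3740 and 7302 UMIs.

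The Csf1 level of T cells varied widely between the mice of each genotype. In precursor-exhausted CD8+ T cells it was 78.3, 181, 194 and 107 CPM in KO replicates 1 to 4 and 15.9, 124 and 116 CPM in WT replicates 1 to 3, the lowest from 21 cells. In Tfh cells it was 157, 219, 265 and 52.8 CPM in the KO mice and 261 and 87.6 CPM in WT replicates 2 and 3, and the groups overlapped. Low-quality microglia had 278 and 516 CPM in KO replicates 1 and 4 and 366, 399 and 468 CPM in WT replicates 1 to 3, with the WT values between the KO values. The genotype difference there was -0.05 on the log2 scale (SE 0.34, edgeR quasi-likelihood test, Benjamini-Hochberg adjusted p = 0.997), and its sign turned without KO replicate 1 (0.30) or WT replicate 3 (0.06).

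The promoter windows are printed for 2 of the ligands found in T cells here, Csf1 and Csf2, and further on for a pair of receptors with a myeloid pattern. Each is the 250 bases upstream of the RefSeq gene start (build GRCm38.p6), 5′ to 3′ in the gene's direction, with capitals marking matches on either strand to GAGGAA (a core of PU.1 sites), GGGCGG (SP1), GGAAAA (NFAT), TGTGGT (RUNX), TGANTCA (AP-1) or TATAAA. Csf1 lies at chr3:107760470-107760719 on the minus strand and Csf2 at chr11:54249900-54250149 on the minus strand.
Csf1: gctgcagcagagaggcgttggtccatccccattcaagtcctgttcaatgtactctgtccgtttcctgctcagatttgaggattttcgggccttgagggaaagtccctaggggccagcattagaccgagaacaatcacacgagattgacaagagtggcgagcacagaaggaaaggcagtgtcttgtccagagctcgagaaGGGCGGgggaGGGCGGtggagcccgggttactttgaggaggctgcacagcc
Csf2: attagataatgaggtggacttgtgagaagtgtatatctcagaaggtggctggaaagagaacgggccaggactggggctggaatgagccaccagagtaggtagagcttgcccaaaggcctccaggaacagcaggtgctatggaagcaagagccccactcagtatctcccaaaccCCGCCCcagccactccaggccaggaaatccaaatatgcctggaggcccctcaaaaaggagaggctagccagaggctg
The Csf1 window held 2 matches to GGGCGG, starting at -51 and -41 from the gene start, and the Csf2 window held 1, at -77. The Csf2ra, Flt3l and Kit windows also held 1 each, at -102, -58 and -98, and the Csf3r and Flt3 windows none. Of all 27025 windows of this length, 32.9% held GGGCGG. None of the 7 members' windows held the NFAT, RUNX, AP-1 or TATAAA letters, which were in 20.6%, 14.2%, 6.87% and 13% of all windows.

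Csf2, the gene of GM-CSF, was found mainly in helper T cells. Tfh cells held 270 ± 168 CPM (n = 6) and Th1 cells 183 ± 68.4 CPM (n = 6), which did not differ beyond their spread. Gamma-delta T cells had 77.6 ± 70.8 CPM (n = 4), proliferating CD4+ T cells and Tregs 49.7 ± 35.7 (n = 6) and NK cells 19.1 ± 27.6 (n = 7), while precursor-exhausted and exhausted CD8+ cells were at 10.4 ± 9.03 and 2.37 ± 2.98 CPM. Single mice carried 3 of these means: NK cells had 81.2 CPM in WT replicate 1 and a mean of 8.73 without it, gamma-delta T cells 178 CPM in WT replicate 2 and 44.1 without it, and exhausted CD8+ cells 1.50 without WT replicate 2. Its UMIs lay in few cells: 447 of 2613 Tfh and Th1 cells held any, and the top 26 of these cells held 35.9% of the 2730 UMIs, with up to 156 in 1 cell. For Csf1 in those 2613 cells, 849 held a UMI and the top 26 held 16.3% of 2062. A Csf2 UMI was found in 25.6% of Tfh and Th1 cells with a Csf1 UMI and in 13% of those without, at median depths of 4961 and 4107 UMIs. In the middle tertile of cells by depth the shares were 18.2% and 12.9%, and no test was made over cells. The genes whose level over the 23 types was most like that of Csf2, among 7380 compared, were Cd40lg (Pearson r = 0.889 of log2(CPM + 1)), Lta (0.889) and Tnfsf11 (0.870), 3 members of the tumour necrosis factor family. These correlations are across cell types that share the same 7 libraries and are a description.

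Csf2 in Tfh cells had lower values in KO mice than in the WT mice fitted, without passing the adjusted test. The levels were 108, 338, 174 and 93.4 CPM in KO replicates 1 to 4 and 417 and 489 CPM in WT replicates 2 and 3, so these groups did not overlap. WT replicate 1 had only 18 Tfh cells, below the minimum of 20, and its 252 CPM lay below KO replicate 2. The difference was -1.34 on the log2 scale (SE 0.56, edgeR, adjusted p = 1.00), and over the alternatives the adjusted p ran from 0.00877 to 1.00. The lowest came without KO replicate 2, where the value was -1.86 (SE 0.24). In Th1 cells the mice overlapped, at 119, 285, 131 and 134 CPM in KO and 182 and 246 CPM in WT replicates 2 and 3.

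Il34, the other CSF1R ligand, had 272 UMIs in all and stood above 1 CPM in 2 cell types. pDCs, the interferon-producing dendritic cells, held 24.0 ± 5.69 CPM (n = 7) and the tumour or stromal cells 18.9 ± 4.72 CPM (n = 5), which did not differ beyond their spread. All other types were under 1 CPM, and 11 of the 23 were at 0 in the mice with at least 20 such cells. Within pDCs, Il34 was 14.5, 23.0, 31.9 and 24.9 CPM in KO replicates 1 to 4 and 23.0, 29.5 and 21.0 CPM in WT replicates 1 to 3, and the WT values lay within the KO range. These rest on 83 UMIs in 71 of 541 cells. In tumour or stromal cells, which the sort for CD45 or CD11b was not meant to keep, the values were 26.5 and 20.2 CPM in KO replicates 2 and 4 and 16.2, 16.8 and 14.7 CPM in the WT mice. The groups did not overlap, but the difference of 0.58 on the log2 scale (SE 0.29, edgeR, adjusted p = 0.595) missed the threshold. The 8 T cell markers summed to 52.6 to 74.0 CPM in these cells of KO mice and to 3.82 to 8.82 CPM in those of WT mice; their part in the result was not tested. A thinned share of 3.43% of pDCs and 2.78% of tumour or stromal cells held an Il34 UMI, against 0.100% of B cells and 0.0159% of T cells. Without thinning these were 13.1%, 29.2%, 0.238% and 0.0292%.

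Flt3l, the ligand of FLT3, was low everywhere and spread over lymphocytes. Naive or early activated CD8+ cells held 14.1 ± 5.78 CPM and their CD4+ counterparts 12.8 ± 5.35 (both n = 7), followed by exhausted CD8+ T cells at 9.62 ± 5.28 (n = 6) and NK cells at 9.58 ± 6.63 (n = 7). No pair of neighbours in the order of all 23 types differed beyond its spread. NK cells had 12.5, 20.5, 11.9 and 10.2 CPM in KO replicates 1 to 4 and 0, 3.35 and 8.69 CPM in the WT mice, the last group resting on 7 UMIs, and Flt3l did not enter the NK fit. Of the 780 Flt3l UMIs in the matrix, 41.6% were in values that are not whole numbers, and without these the level in naive CD8+ cells was 6.82 CPM. In those cells the genotype difference was 0.12 on the log2 scale (SE 0.44, edgeR, adjusted p = 0.999), and it was below 0 without KO replicate 1 (-0.10) or WT replicate 2 (-0.28).

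**Figure D2:**
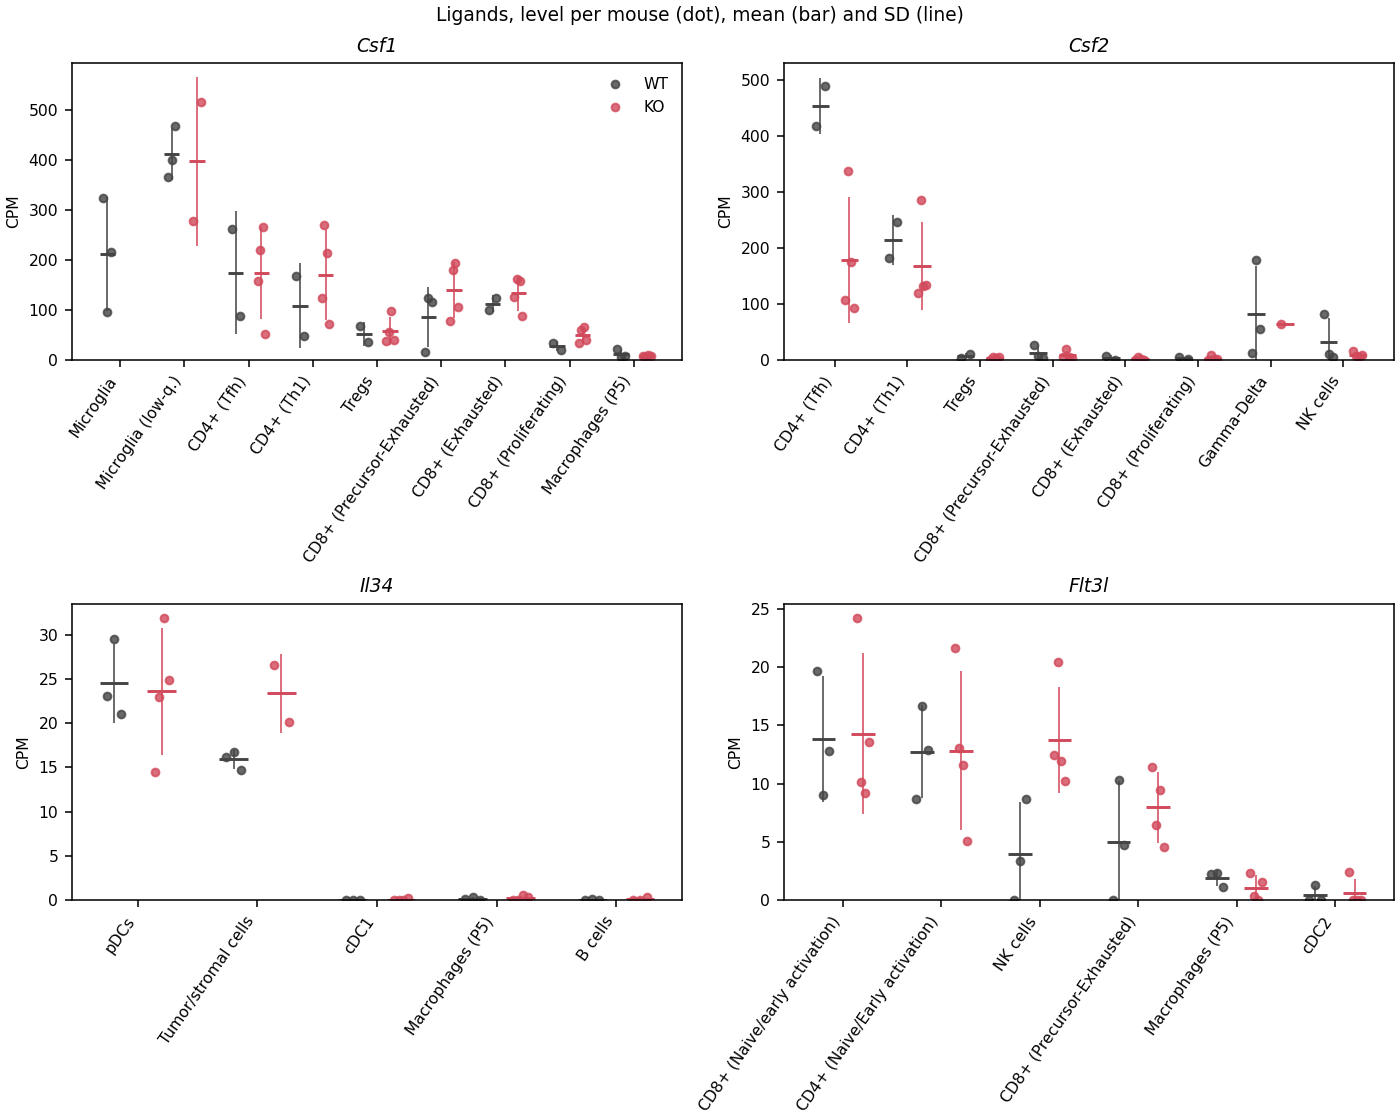
Each dot is the level of a ligand (vertical axis, CPM, starting at 0) in 1 mouse with at least 20 cells of the type on the horizontal axis, black for WT and red for KO, with the mean as a bar and the SD as a line where there are 2 or more mice. Csf1 spans microglia and T cells, with groups that overlap except in proliferating CD8+ T cells. Microglia other than low-quality have WT dots only. Csf2 in Tfh cells is at 417 and 489 CPM in WT and at most 338 CPM in KO. Il34 stands above 14 CPM only in pDCs and tumour or stromal cells.

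Csf1r, the receptor for CSF1 and IL-34, was highest in microglia, followed by macrophages and monocytes. Low-quality microglia had 2170 ± 376 CPM (n = 5) and the other microglia 1987 ± 180 CPM (n = 3, all WT). Beyond the spread followed macrophages P5 at 733 ± 119, macrophages P3 at 713 ± 134 and monocytes at 693 ± 119 CPM (all n = 7), which did not differ among themselves. Proliferating macrophages were at 559 ± 89.8 (n = 6) and mo-DCs at 175 ± 24.2 CPM (n = 7), each a step beyond the spread of its neighbours. Thinned shares of cells with a UMI were 88.5% and 89.8% in microglia and low-quality microglia, 62.2% in macrophages P5, 20.6% in mo-DCs, 3.14% in T cells and 2.39% in B cells (unthinned 97.5%, 90.4%, 92.9%, 61.6%, 8.54% and 6.79%). T cells are thus near the level of B cells, which is read here as background. Among the genes most like Csf1r over the 23 types were Itgam (r = 0.989), an integrin gene, and Tlr2 (0.976), which encodes a pattern receptor.

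In low-quality microglia Csf1r was 1680 and 1927 CPM in KO replicates 1 and 4 and 2607, 2442 and 2192 CPM in WT replicates 1 to 3. The groups did not overlap, but KO replicate 3, left out with 13 cells, had 2628 CPM. In all microglia the T cell markers summed to 42.9 to 139 CPM in KO and 10.8 to 41.1 CPM in WT mice, and their part in the result was not tested. The difference was -0.44 on the log2 scale (SE 0.29, edgeR, adjusted p = 0.876). In monocytes and macrophages together it was 606, 753, 935 and 677 CPM in KO replicates 1 to 4 and 711, 746 and 581 CPM in WT replicates 1 to 3, a difference of 0.14 (SE 0.16, adjusted p = 0.950). The difference between both classes, with 1 term per mouse, was -0.58 for Csf1r (SE 0.26, edgeR, unadjusted p = 0.0254, adjusted p = 0.375) in 3 KO and 3 WT mice. None of the 6 members in that test passed, where 0.523% of all 11858 genes were called. Csf1r was the 1 member at an unadjusted p under 0.05, as were 10.7% of all genes.

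Csf3r, the G-CSF receptor, is best known from neutrophils. No annotated type bears that name, and among the annotated types Csf3r was highest in microglia. Low-quality microglia had 160 ± 51.6 CPM (n = 5) and the other microglia 111 ± 25.9 (n = 3, all WT). Beyond the spread followed monocytes at 60.4 ± 18.3, macrophages P3 at 45.4 ± 19.8 and macrophages P5 at 38.6 ± 8.11 CPM (n = 7 each). The 8 neutrophil markers summed to 0 CPM in the microglia of each fitted KO mouse and to 0 to 23.9 CPM in those of WT mice, with Ly6g, Mmp8, Camp and Ltf at 0 in both. In monocytes and macrophages together these markers summed to 20.8 to 75.6 CPM in KO and 10.4 to 56.0 CPM in WT mice. Their part in the Csf3r level there was not tested. Low-quality microglia had 167 and 196 CPM in KO replicates 1 and 4 and 221, 107 and 107 CPM in WT replicates 1 to 3. These rest on 12 and 16 UMIs in the KO mice and 41, 11 and 11 UMIs in the WT mice. The genotype difference was 0.22 on the log2 scale (SE 0.41, edgeR, adjusted p = 0.972). With a minimum of 10 cells in place of 20 it turned to -0.23, and with 1 mouse left out it ran from 0.05 to 0.73. In conventional dendritic cells, NK cells and B cells the receptor lay between 0.776 (cDC2; 0.460 without KO replicate 2) and 1.46 CPM (B cells; 0.142 without WT replicate 3). Among the genes most like it were Il1a (r = 0.979) and Itgam (0.967).

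The windows of Csf3r, at chr4:126024409-126024658 on the plus strand, and of Csf2ra, at chr19:61228419-61228668 on the minus strand, are shown because both receptors were highest in myeloid types.
Csf3r: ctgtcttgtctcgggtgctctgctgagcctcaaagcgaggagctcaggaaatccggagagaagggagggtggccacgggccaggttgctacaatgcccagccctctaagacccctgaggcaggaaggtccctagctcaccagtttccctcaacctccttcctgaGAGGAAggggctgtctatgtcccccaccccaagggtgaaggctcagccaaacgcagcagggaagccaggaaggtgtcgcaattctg
Csf2ra: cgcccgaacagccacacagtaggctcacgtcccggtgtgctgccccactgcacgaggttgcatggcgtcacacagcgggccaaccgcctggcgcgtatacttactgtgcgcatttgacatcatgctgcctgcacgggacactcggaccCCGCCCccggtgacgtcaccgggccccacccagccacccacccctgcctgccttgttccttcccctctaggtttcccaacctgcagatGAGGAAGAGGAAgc
GAGGAA occurred 2 times in the Csf2ra window, at -14 and -8, and 1 time in the Csf3r window, at -86, against 23.1% of all windows with at least 1 match. It also occurred 1 time in the Kit window, at -223, and in none of the Csf1, Csf2, Flt3 and Flt3l windows.

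Csf2ra, the α chain that makes the GM-CSF receptor specific, was found in all myeloid types, with means from 356 down to 176 CPM outside pDCs. Monocytes had 356 ± 39.8 CPM and macrophages P3 323 ± 49.1 (both n = 7), then mo-DCs, microglia, macrophages P5, proliferating macrophages, cDC1, low-quality microglia and cDC2 ran from 266 ± 37.8 down to 176 ± 37.6 CPM with no step beyond the spread. pDCs were far lower at 55.5 ± 19.1 CPM (n = 7), and lymphocytes and tumour or stromal cells were at 4.33 to 20.4 CPM, the highest, gamma-delta T cells, at 13.5 without WT replicate 3. Thinned to 1500 UMIs, 42.8% of monocytes, 28.0% of cDC1, 2.32% of B cells and 1.48% of T cells held a UMI (unthinned 83.8%, 88.6%, 10.2% and 4.39%). In monocytes the level was 332, 351, 318 and 313 CPM in KO replicates 1 to 4 and 399, 360 and 417 CPM in WT replicates 1 to 3. All 3 WT mice were higher, by a small margin, and the difference of -0.30 on the log2 scale (SE 0.16, edgeR, adjusted p = 0.760) missed the threshold. In monocytes and macrophages together, T cell markers summed to 49.6 to 79.9 CPM in KO and 14.1 to 31.8 CPM in WT mice. The pDC markers summed there to 389 to 770 CPM in KO and 855 to 1084 CPM in WT mice. The part of such RNA in the difference was not tested. Th1 cells, at 2.98, 11.4, 3.82 and 10.1 CPM in KO and 15.1 and 18.2 CPM in WT replicates 2 and 3, did not overlap either (-1.16, SE 0.47, edgeR, adjusted p = 1.00), but these levels lie within or below those of B cells, which had 7.62 to 34.6 CPM. Among the genes most like Csf2ra were Spi1 (r = 0.978), which encodes PU.1, and Phf11d (0.977).

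Csf2rb, the β chain shared by the receptors for GM-CSF, IL-3 and IL-5, was highest in the cells named cDC2. These had 462 ± 59.6 CPM, above mo-DCs at 359 ± 45.5 beyond the spread, with monocytes next at 342 ± 44.0 CPM (n = 7 each). Macrophages ran from 261 ± 34.7 in P3 to 160 ± 31.0 in P5 and 101 ± 27.3 CPM in proliferating cells, while pDCs held 243 ± 59.7 CPM. Microglia and cDC1 carried Csf2rb as well. Their counts come from cells of unlike depth and do not place them in the CPM order above. Csf2rb had 173 UMIs in 251 low-quality microglia, 222.5 in 163 other microglia and 6476 in 1864 cDC1. In cDC2 it was 484, 375, 530 and 454 CPM in KO replicates 1 to 4 and 538, 441 and 413 CPM in WT replicates 1 to 3, overlapping, with a difference of -0.11 (SE 0.17, edgeR, adjusted p = 0.892) that was 0.0045 without WT replicate 1. Macrophages P3 had 282, 264, 318 and 275 CPM in KO and 215, 237 and 235 CPM in WT mice, without overlap (0.31, SE 0.16, edgeR, adjusted p = 0.890). B cells had 6.24, 12.3 and 11.1 CPM in KO replicates 2 to 4 and 33.1, 26.0 and 44.4 CPM in WT replicates 1 to 3, again without overlap (-1.53, SE 0.44, edgeR, adjusted p = 1.00), from 1 to 138 UMIs per mouse. B cells were taken above as the level that free RNA gives, in samples whose cell makeup differed. The part of free RNA in this difference was not tested.

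The neighbouring paralog Csf2rb2, whose product is an IL-3-specific β chain in mice, took different shares of the pair's UMIs in different cells. It held 68.8% in pDCs, 17.3% in cDC1, 22.6% in cDC2, 35% in mo-DCs and 34.8% in monocytes. The genes are closely similar in sequence, 13.6% of Csf2rb UMIs were in values that are not whole, and reads could have been split between them, so each level is uncertain. With whole values only, the shares were 69.5% in pDCs and 17.2% in cDC1. In pDCs Csf2rb2 was 568, 703, 287 and 558 CPM in KO replicates 1 to 4 and 303, 679 and 286 CPM in WT replicates 1 to 3, above Csf2rb in the same mouse in all 7 mice. The genes most like Csf2rb over the types were Prkcd (r = 0.974), Csf2rb2 (0.966) and Pirb (0.959).

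Flt3 marked the dendritic cells. The cells named cDC2 had 252 ± 35.4 CPM, cDC1 217 ± 27.0 and pDCs 197 ± 42.1, an order in which neighbours did not differ beyond their spread, and mo-DCs had 106 ± 31.6 CPM (n = 7 each). A gap followed, down to 9.73 ± 4.06 CPM in monocytes and less in all other types. A thinned share of 31.7% of cDC2, 26.9% of cDC1, 22.8% of pDCs and 13.8% of mo-DCs held a UMI, against 0.522% of B cells (unthinned 73.9%, 87.4%, 61.6%, 52.1% and 3.21%). In cDC2 the values were 210, 232, 258 and 269 CPM in KO replicates 1 to 4 and 302, 281 and 211 CPM in WT replicates 1 to 3, overlapping, with a difference of -0.22 on the log2 scale (SE 0.17, edgeR, adjusted p = 0.720). Clec9a, a cDC1 lectin, was the gene most like Flt3 (r = 0.956), followed by Pkib (0.881) and Tnni2 (0.880).

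Kit was found in dendritic cells other than pDCs, and at lower levels in NK cells and T cells. Among T cells, Tfh cells had 5.39 to 27.7 CPM and Th1 cells 6.02 to 19.4 CPM in the mice with at least 20 such cells. mo-DCs had 144 ± 28.2 CPM and cDC1 137 ± 28.4, followed beyond the spread by cDC2 at 84.1 ± 24.2 and NK cells at 35 ± 11.1 CPM (n = 7 each), while pDCs, which carried Flt3, were at 3.94 ± 5.53 CPM (1.94 without WT replicate 1). At least 1 Kit UMI was present in 1277 of 1864 cDC1 and 925 of 1569 mo-DCs, or 16.6% and 17.9% of cells after thinning (4.23% of NK cells, 1.04% of T cells and 0.0159% of B cells; unthinned 13.1%, 3.05% and 0.238%). The 6 mast cell and basophil markers summed to at most 0.605 CPM in the mo-DCs of any mouse, with 5 of the 6 at 0 in all mice, and to at most 22.3 CPM in its conventional dendritic cells, in 1 WT mouse. In mo-DCs Kit was 144, 128, 205 and 138 CPM in KO replicates 1 to 4 and 146, 132 and 119 CPM in WT replicates 1 to 3, and the groups overlapped (0.16, SE 0.17, edgeR, adjusted p = 0.853). The spreads overlapped between the authors' cell cycle phases, where cDC1 in G1, S and G2M had 144 ± 28.5 (n = 7), 116 ± 11.9 (n = 5) and 134 ± 51.7 CPM (n = 6). The genes most like Kit were Slc25a20 (r = 0.831), with Mkrn1 next and then Cldn1 (0.801).

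**Figure D3:**
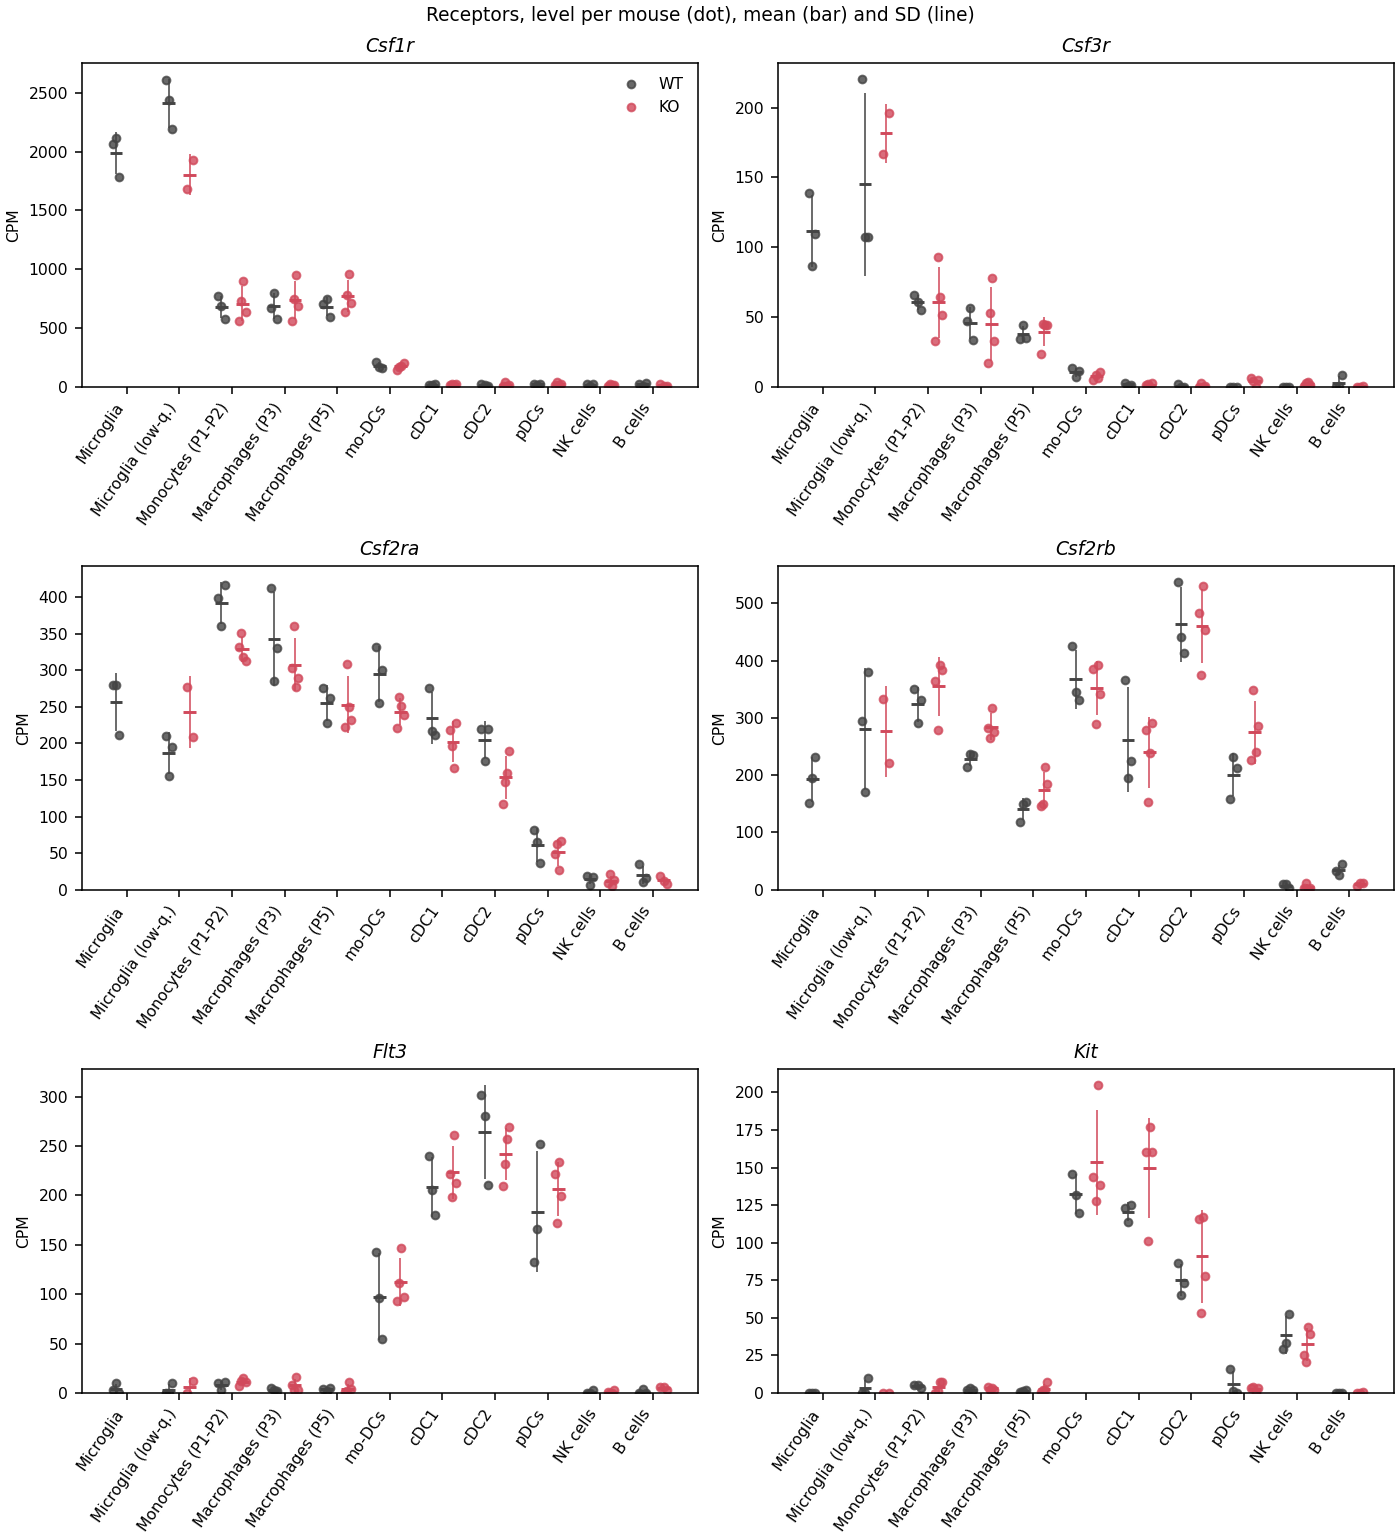
Each dot is the level of a receptor (vertical axis, CPM, starting at 0 and scaled per gene) in 1 mouse with at least 20 cells of the type on the horizontal axis, black for WT and red for KO, with the mean as a bar and the SD as a line where there are 2 or more mice. Csf1r and Csf3r are highest in the microglia columns, Csf2ra and Csf2rb in many myeloid types, Flt3 in 4 dendritic cell columns and Kit in 3 of these.

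Across the annotated types, no member passed the adjusted test for genotype. In 21 types with enough cells, 92 tests of members were made and 0 passed at an adjusted p under 0.05 (edgeR quasi-likelihood), where 0.0166% of all 168805 gene and type tests passed; the smallest adjusted p of a member was 0.426. At an unadjusted p under 0.05 there were 9 of the 92, against 5.44% of all tests. Of these, 5 were higher in KO (background 2.67%) and 4 lower (2.76%). DESeq2 also called 0, against 0.0956% of its tests. The CPM of KO and WT mice did not overlap in 9 of the 92, against 10.5% of all tests. Of these 9, 4 were higher in KO (5.63% of all tests) and 5 lower (4.85%). The median log2 difference was 0.08 for the members and 0.01 for all genes. Microglia other than low-quality and gamma-delta T cells had too few KO libraries with 20 cells to be fitted. In the 4 joined classes (microglia, monocytes and macrophages, conventional dendritic cells, T cells) 0 of 28 tests passed, against 0.00481% of all genes, 2 were at an unadjusted p under 0.05, against 7.02% of all genes, and DESeq2 called 0, against 0.189%.

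Of the 9 without overlap, Csf1 gave 2, both in proliferating T cells. In proliferating CD4+ T cells and Tregs it was 27.5, 51.6, 37.8 and 28.9 CPM in KO replicates 1 to 4 and 17.3 and 16.5 CPM in WT replicates 2 and 3 (1.09 on the log2 scale, SE 0.34, edgeR, adjusted p = 1.00). In proliferating CD8+ T cells it was 34.5, 60.8, 66.8 and 40.3 CPM in KO and 34.3 and 20.6 CPM in WT replicates 2 and 3 (1.03, SE 0.36, edgeR, adjusted p = 1.00), where KO replicate 1 and WT replicate 2 nearly touched, and the difference was 0.54 without WT replicate 3. Over all T cells Csf1 was 72.4, 155, 176 and 75.0 CPM in KO and 16.5, 102 and 74.2 CPM in WT mice, and the groups overlapped (0.88, SE 0.60, edgeR, adjusted p = 0.828).

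In the joined classes Csf1 gave both results without overlap, against 8.43% of all tests, 1 higher in KO (background 4.2%) and 1 lower (4.23%). In monocytes and macrophages it was 9.40, 5.29, 7.83 and 9.41 CPM in KO replicates 1 to 4 and 19.0, 9.60 and 10.8 CPM in WT replicates 1 to 3 (-0.70 on the log2 scale, SE 0.28, edgeR, adjusted p = 0.831), and the difference was -0.36 without WT replicate 1. In conventional dendritic cells it was 3.00, 4.06, 5.09 and 4.98 CPM in KO and 2.07, 1.40 and 1.89 CPM in WT mice (1.27, SE 0.31, edgeR, adjusted p = 0.575). These last levels lie below the mean of B cells, 5.95 CPM. The 8 T cell markers moved the same way inside the conventional dendritic cells, at a sum of 64.5 to 112 CPM in KO and 8.47 to 34.6 CPM in WT mice. In monocytes and macrophages, where Csf1 was lower in KO, they summed to 49.6 to 79.9 CPM in KO and 14.1 to 31.8 CPM in WT mice. The 6 pDC markers summed there to 389 to 770 CPM in KO and 855 to 1084 CPM in WT mice. The part of T cell or pDC RNA in both results was not tested.

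Over all sorted cells of a mouse, where cell makeup enters, 5 of the 10 members did not overlap between the genotypes, against 19.8% of all 16997 genes. Csf1 and Flt3l were higher in KO mice (10.9% of all genes), and Csf1r, Csf3r and Csf2ra were lower (8.88%). None passed in edgeR (background 0%; 6 of the 10 and 20.5% of all genes had an unadjusted p under 0.05), while DESeq2 called those 5, against 9.33% of its 14264 genes (4.78% higher and 4.55% lower in KO). Csf1 was 30.8, 64.0, 124 and 40.6 CPM in KO replicates 1 to 4 and 21.0, 28.6 and 29.6 CPM in WT replicates 1 to 3 (1.30 on the log2 scale, SE 0.46, edgeR adjusted p = 0.193, DESeq2 adjusted p = 0.0414), and 0.75 without KO replicate 3, the highest. Csf1r was 214, 179, 132 and 132 CPM in KO and 454, 261 and 256 CPM in WT mice (-0.97, SE 0.26, edgeR adjusted p = 0.163, DESeq2 0.00943). Csf3r was 8.67, 12.7, 8.22 and 8.44 CPM in KO and 28.1, 16.0 and 16.3 CPM in WT mice (-1.08, SE 0.24, edgeR adjusted p = 0.159, DESeq2 0.00303). Csf2ra was 122, 136, 64.2 and 95.7 CPM in KO and 263, 142 and 178 CPM in WT mice (-0.89, SE 0.28, edgeR adjusted p = 0.172, DESeq2 0.0328). Flt3l was 5.87, 4.18, 6.06 and 3.62 CPM in KO and 2.18, 2.43 and 2.82 CPM in WT mice (1.00, SE 0.26, edgeR adjusted p = 0.162, DESeq2 0.0130), and 0.40 with whole values only. For each of the 5 the WT and KO ranges were separate, with WT replicate 1 the highest WT mouse for the 3 receptors.

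**Figure D4:**
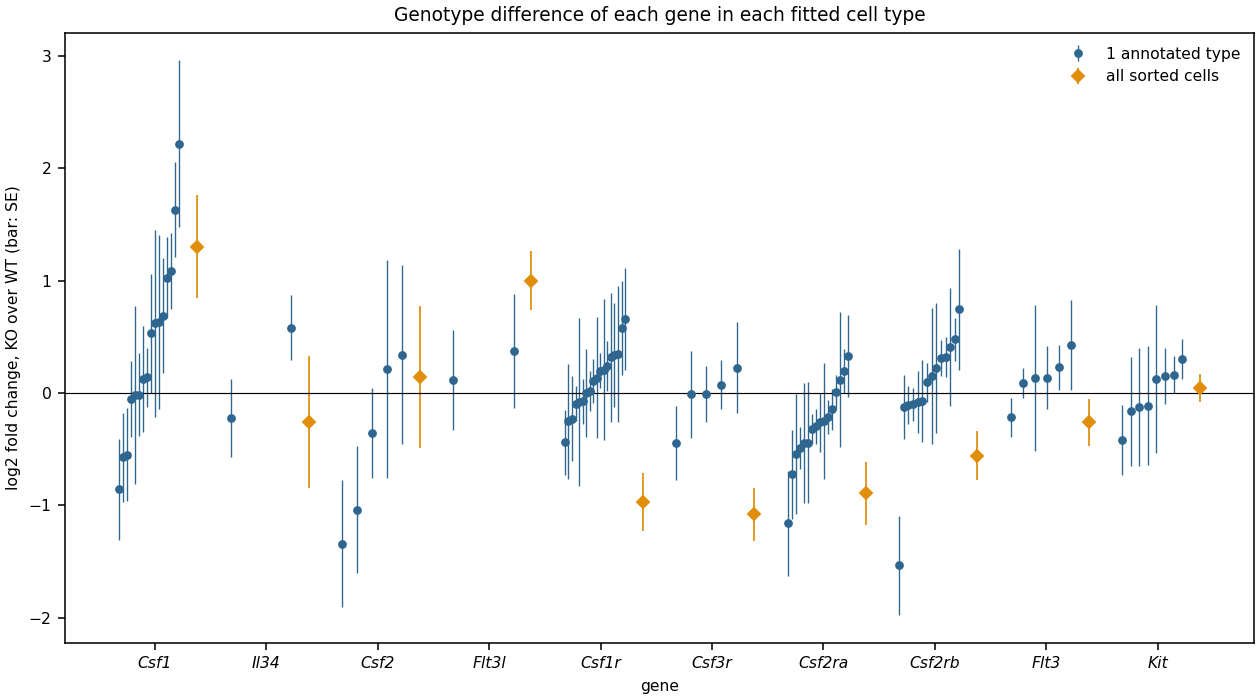
Each blue dot is the log2 fold change (KO over WT, vertical axis) of a gene in 1 annotated cell type that could be fitted in edgeR, and each orange diamond the same over all sorted cells, with the SE as a bar; genes are on the horizontal axis. For Csf1r, Csf3r, Csf2ra and Csf2rb the diamond lies below 0 while the dots fall on both sides of 0, with 4 of the 16 Csf2ra dots above it.

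The levels over all sorted cells were then set beside what the cell makeup alone would give, and beside the levels at 1 fixed makeup. With each type held at its level pooled over all mice, so that only the share of UMIs per type differed between mice, the KO to WT ratio of group means was 0.503 for Csf1r (measured 0.508), 0.504 for Csf3r (measured 0.473), 0.609 for Csf2ra (measured 0.537), 2.09 for Csf1 (measured 2.46) and 1.80 for Flt3l (measured 1.99). The makeup was also held at its mean over mice, with each mouse's own levels kept where it had enough cells of a type. The ratios were then 1.07 for Csf1r, 1.00 for Csf3r, 0.893 for Csf2ra, 1.30 for Csf1 and 1.15 for Flt3l. KO replicate 3 had no cells named microglia other than low-quality, and KO replicates 1, 2 and 4 had 10, 7 and 15. WT replicate 1 had only 18 Tfh and 8 Th1 cells. What stood in for levels that a mouse could not give is not given here. For Csf2 the measured ratio was 1.12, that from makeup 1.74 and that at fixed makeup 0.646. The other 4 members had measured ratios of 0.675 (Csf2rb), 0.836 (Flt3), 0.846 (Il34) and 1.03 (Kit), and 1.05 to 1.18 at fixed makeup. At fixed makeup the Csf1 level was 47.5 ± 16.3 CPM in KO mice (n = 4) and 36.5 ± 6.74 in WT mice (n = 3), and that of Csf1r 244 ± 39.1 and 229 ± 23.7 CPM, with overlapping ranges for both. Those of Csf2 were 14.5 ± 7.70 and 22.4 ± 2.30 CPM, also overlapping. In WT replicate 1, with few Tfh and Th1 cells, Csf2 was 20.9 CPM at fixed makeup against 2.80 CPM measured. The WT mean and SD of Csf2 at fixed makeup, and its ratio of 0.646, thus rest in part on levels that stood in for this mouse.

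The cells that hold the UMIs of a ligand differed between the mice. T cells held 77.9%, 87.5%, 98.5% and 86.7% of the Csf1 UMIs in KO replicates 1 to 4 and 5.25%, 73.8% and 67.7% in WT replicates 1 to 3. The groups did not overlap, with a difference of 38.8 percentage points (two-sided exact permutation test over 35 divisions of the mice, p = 0.0286, the smallest possible, adjusted p = 0.229 over 40 shares tested), which was 16.9 points without WT replicate 1. In that mouse monocytes and macrophages held 47.8% of the Csf1 UMIs and microglia 35.1%. T cells held 93.0% ± 6.12 of Csf2 UMIs in KO mice (n = 4) and 87.2% ± 18.2 in WT mice (n = 3). For the receptors, monocytes and macrophages held 79.5% ± 4.42 of the Csf1r UMIs in KO and 83.1% ± 1.84 in WT mice, and microglia 4.37% ± 2.74 and 9.98% ± 0.906. Of Csf2ra UMIs they held 48.4% ± 7.86 in KO and 60.3% ± 7.52 in WT mice, and conventional dendritic cells held 26.4% ± 8.01 and 23.0% ± 4.00. Among the 40 shares tested, 7 did not overlap, against 33.5% of the shares of all genes. None passed after adjustment, but with a smallest possible p of 0.0286 at least 23 of the 40 would have had to reach it for any to pass.

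**Figure D5:**
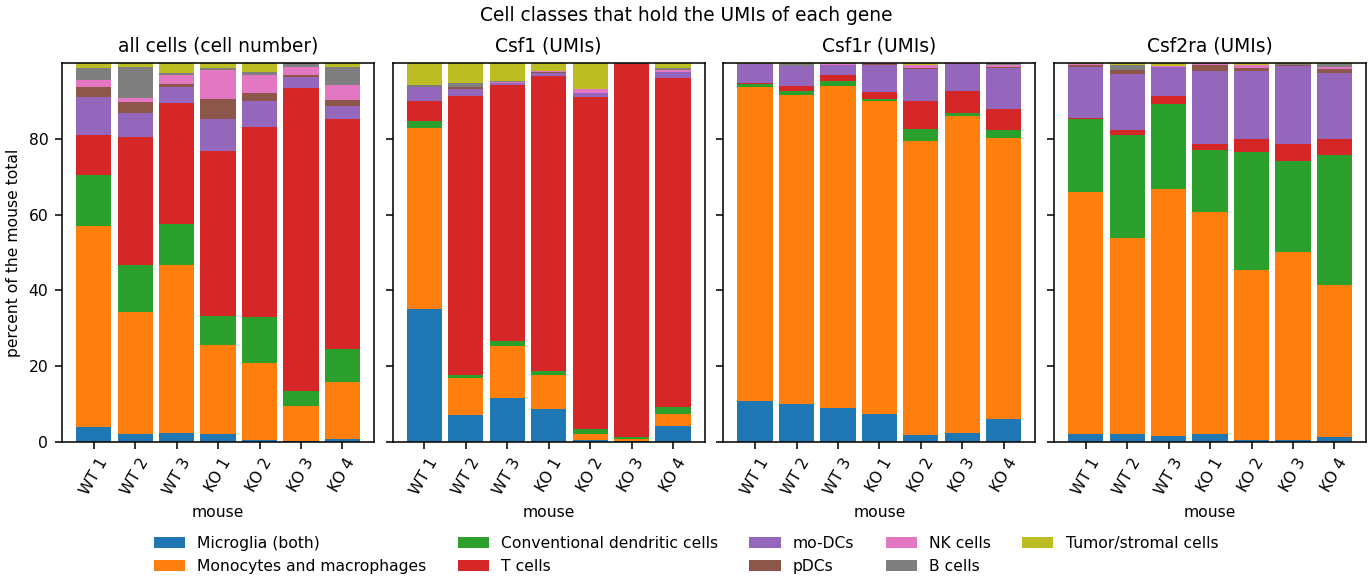
Stacked bars give, for each mouse (horizontal axis), the percent (vertical axis) of all cells (left panel) and of the UMIs of Csf1, Csf1r and Csf2ra (other panels) that lie in each of 9 cell classes (colours). T cells hold at least 77.9% of Csf1 UMIs in KO mice and 5.25% in WT replicate 1, while monocytes and macrophages hold most Csf1r UMIs in every mouse.

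The other genes of these pathways were examined as 5 lists. Within the annotated types 0 tests passed in any list: 28 tests of other ligands and receptors (3 of 8 genes measured well enough), 189 of JAK-STAT signalling and feedback (10 genes), 196 of receptor kinase adaptors and phosphatases (11 genes), 42 of the shedding enzymes Adam10 and Adam17, and 240 of lineage transcription factors (15 genes). At an unadjusted p under 0.05 the adaptors and phosphatases had 6 higher and 17 lower, the transcription factors 10 higher and 14 lower, and JAK-STAT genes 2 higher and 8 lower, against the background of 2.67% higher and 2.76% lower. The JAK-STAT total of 10 in 189 is near the 5.44% of all tests. DESeq2 called 0 of these tests. Median log2 differences ran from -0.12 (transcription factors) to 0.00 (JAK-STAT), against 0.01 for all genes. In the joined classes 0 passed in edgeR or in DESeq2. Over all sorted cells 0 passed in edgeR, with the smallest adjusted p at 0.159, while DESeq2 called 10 of the 41 list genes, 9 of them lower in KO mice, against the 9.33% of all genes (4.55% lower) given above, in samples whose cell makeup differed. Among them, the DESeq2 log2 differences were -0.96 for Spi1 (adjusted p = 0.00538), -0.88 for Cebpa (0.0201) and -0.84 for Cebpb (0.000895), which encode myeloid transcription factors. The Src family kinase gene Lyn had -0.80, and the feedback gene Socs3, the kinase gene Pim1 and the protease gene Adam17 had -0.61, -0.48 and -0.56. The adaptor gene Dok2 was the 1 gene higher in KO mice, at 1.03 (DESeq2 adjusted p = 0.0191).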

How the data were processed

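The deposited matrix holds expected counts: unscaled UMI values, of which 7.51% of those above 0, with 8.71% of the UMIs, are fractional. The authors made it with STARsolo (STAR 2.7.10a) on mm10, with FastQC 0.11.5 also named, per the submitters' processing notes; the annotation, the cell filters and the treatment of doublets are not given in the sources used here. From the deposited table of cells, the library, cell type and cell cycle phase names were used. The other deposited columns (counts of detected genes, percent mitochondrial and ribosomal, and a projection score per cell from the authors) were not.

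UMIs were summed per mouse and cell type and rounded to whole numbers, a step added to the design, which had assumed whole counts. Each type, 4 joined classes and all sorted cells were fitted in edgeR 4.0.16 (R 4.3.3; TMM, filterByExpr, robust quasi-likelihood, genotype only), using libraries with at least 20 cells of the type and types with 2 such libraries per genotype. P-values were adjusted over all genes of a fit by Benjamini-Hochberg; a gene was called at an adjusted p under 0.05. Log2 fold changes are KO over WT; the SE is the fold change divided by the square root of its F. The class-by-genotype term was tested with 1 term per mouse. DESeq2 1.42.0, RLE scaling, no filter, other cell minimums (10, 50), whole values only, a replicate block and leaving out each mouse were alternatives. The scripts were tested on simulated data, with planted changes larger than most differences given here. That test does not cover smaller changes. Levels between types carry no test, since the types were built from all genes. A step between neighbouring types counts as beyond the spread when the means differ by more than the larger SD. Thinned shares are the expected share at 1500 UMIs per cell, without shallower cells. Genes of like pattern reached 50 CPM in at least 1 type, as did the members compared. Differences are given in full where the groups did not overlap (with at least 20 UMIs) or in the type where a gene is highest. Promoter windows come from RefSeq (GRCm38.p6); 7 of the 10 members matched. The labels name no batch and 1 library per mouse, taken as 1 animal each. The members and lists were chosen with earlier results of these data known. Some genes that the naming rules select are not reported here.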

Additional observations from a re-analysis of the deposited data

Results flagged for a closer look

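Csf3r over all sorted cells was 12.7 CPM in KO replicate 2, apart from the other 3 KO mice at 8.22 to 8.67 CPM; the gap to the nearest of these, divided by the range of the 4 mice, was above Dixon's 95% critical value. Among 18 groups of 4 mice examined, 1 was marked in this way, and chance marks about 1 in 20. Without this mouse the log2 difference between KO and WT was -1.24, against -1.08 with it.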

How the results depend on the processing

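Of 588 comparisons of a result with an alternative, 543 kept their direction and their side of the threshold or lay within the range allowed for a count or level. Within annotated types 0 member tests were called at first and 2 of 200 with no filter on low counts (0.292% of all 398704 tests): Csf1 in naive or early activated CD4+ T cells (2.24, adjusted p = 0.00106, 96 UMIs; 0, 54.9, 109 and 34.2 CPM in KO and 13, 17.5 and 0 CPM in WT mice, which overlap) and Csf2 in mo-DCs (5.48, adjusted p = 0.0083, 23 UMIs, 17 of them in KO replicate 4). For the latter all 3 WT mice were at 0, so its fitted value is no measured fold. The 8 T cell markers in mo-DCs summed to 63.5 to 211 CPM in KO and 19.4 to 44.4 CPM in WT mice. Leaving out 1 mouse at a time gave 0 to 1 such calls, the 1 being Csf2 in Tfh cells without KO replicate 2. Over all sorted cells DESeq2 called 5 members, where edgeR called 0.

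Counts over all genes moved more. Within types they went from 28 to 1164 with no filter, 153 in DESeq2, 201 with the replicate block, 18 with a minimum of 50 cells, and 23 to 126 with 1 mouse left out. In the joined classes they went from 2 to 63, 77, 14 and 0 under the same settings, to 4 with whole values only, and to 2 to 16 with 1 mouse left out. Over all sorted cells they went from 0 to 4 with no filter, 1331 in DESeq2, 4 with the replicate block, and 0 to 2 with 1 mouse left out. The class-by-genotype term went from 62 to 37 with no filter, 24 with a minimum of 10 cells, and 11 to 114 with 1 mouse left out. The cause was not tested.

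Under the settings where a fitted difference turned sign, its adjusted p was above 0.9. These were Csf1 in low-quality microglia (0.30 without KO replicate 1, 0.06 without WT replicate 3; -0.57 to 0.30 with 1 mouse left out), Csf2rb in cDC2 (0.0045 without WT replicate 1; -0.18 to 0.0045), Csf3r in low-quality microglia (-0.23 with a minimum of 10 cells; 0.05 to 0.73) and Flt3l in naive CD8+ T cells (-0.10 without KO replicate 1, -0.28 without WT replicate 2; -0.28 to 0.38). Others kept their sign but moved by over 1.5 times with 1 mouse left out: Csf1 in monocytes and macrophages (-0.87 to -0.36) and in proliferating CD8+ T cells (0.54 to 1.23), Flt3 in cDC2 (-0.35 to -0.12), Il34 in pDCs (-0.32 to -0.02), Kit in mo-DCs (0.03 to 0.24) and Csf1 over all sorted cells (0.75 to 1.53). The difference in the share of Csf2 UMIs held by T cells ran from -4.76 to 11.3 percentage points with 1 mouse left out. That in the share of Csf1r UMIs held by monocytes and macrophages ran from -4.98 to -1.81 points. The level of Flt3l in naive CD8+ T cells was 6.82 CPM with whole values only.

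No label says that the replicate numbers mark a shared litter, day or batch, so they were not taken as pairs. Deviations of same-numbered KO and WT mice correlated at 0.264, -0.292 and -0.0186 over 16997 genes. KO replicate 1 was most like WT replicate 1, while KO replicates 2 and 3 were most like WT replicates 3 and 2. These are sums over all sorted cells, where cell makeup enters, and they cannot tell whether a batch was shared. With the replicate block, 0 member tests were called in the types, the joined classes and all sorted cells. KO mice had 13 to 49 microglia each, which limits what could be detected there.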
